A study of Mus musculus with 12 samples.

Results

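The xenobiotic and redox enzyme genes described here are 73 protein-coding mouse genes that were measured by RNA sequencing of CD31+ lung cells. They were chosen by gene symbol: every protein-coding gene of the cytochrome P450, glutathione S-transferase, UDP-glucuronosyltransferase, aldehyde dehydrogenase, aldo-keto reductase, flavin monooxygenase, carboxylesterase, sulfotransferase, quinone reductase, heme oxygenase, thioredoxin reductase, glutathione peroxidase, peroxiredoxin and superoxide dismutase families was taken if it stood in any of the 4 deposited comparison tables, with the exception of the club cell gene Cyp2f2. They are 73 of 9338 listed genes, of which 6886 are protein-coding. Cytochromes P450 made up 28 of them, glutathione S-transferases 8, aldehyde dehydrogenases and sulfotransferases 6 each, and carboxylesterases 5, while no UDP-glucuronosyltransferase was listed. Because each table holds only genes with an unadjusted p under 0.05 in the authors' own test of that comparison, the genes that are present had to differ there. Counts over them describe listed genes only, and a gene that is missing from a table has no value here for that comparison.

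The libraries came from 12 male mice on a C57Bl/6J background, all TET2fl/fl and all injected with tamoxifen (40 mg/kg on 3 days, when they were 6 to 8 weeks old). WT mice lacked Cre, and TET2 KO mice carried Cdh5-CreERT2, a recombinase under an endothelial promoter that tamoxifen activates, so that other cell types in the preparation were not targeted. The mice then had chow with 13% of its energy from fat or a high-fat diet (HFD) with 60% for 20 weeks, and CD31+ cells were isolated at 30 weeks of age, with 3 mice, and 1 library from each, in each of the groups WT chow, TET2 KO chow, WT HFD and TET2 KO HFD. CD31 is an adhesion molecule of endothelial cells that some leukocytes also carry.

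The depth was 36.7 to 56.8 M reads on genes (median 39.6 M). Tet2 itself was listed only for HFD against chow in WT, so its loss in TET2 KO libraries was not analysed here. The preparations held more than endothelial cells: in the comparison of the diets in WT, 14 endothelial markers summed to 317 to 1662 FPKM (fragments per kilobase of gene, scaled to the depth of the library) in a library, while 4 markers of club cells, the secretory cells of the airway, summed to 2119 to 5710 FPKM. Most of the club cell sum came from 1 gene, Scgb1a1. Its mean normalised counts (reads scaled by a size factor of each library) were 67020 on HFD and 100100 on chow, against 1097 to 6761 for the others. The sums therefore do not compare the amounts of the cell types. Several of the enzymes described below are abundant in airway or alveolar epithelium. In bulk RNA, fewer cells of a type and less RNA per cell cannot be told apart.

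These enzymes handle foreign and internal chemicals in steps. Cytochromes P450 and flavin monooxygenases add oxygen to a substrate, carboxylesterases cut esters, and aldehyde dehydrogenases and aldo-keto reductases act on the carbonyl groups that result. Glutathione S-transferases and sulfotransferases then attach a soluble group. Peroxidases, peroxiredoxins, superoxide dismutases, thioredoxin reductases and heme oxygenase remove reactive oxygen or the heme that gives rise to it. In lung, Cyp1a1 is the classical gene induced through the aryl hydrocarbon receptor, and many antioxidant genes respond to the transcription factor NRF2.

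The comparison of HFD with chow in WT mice held 54 of the genes, TET2 KO with WT on HFD 27, TET2 KO with WT on chow 16, and HFD with chow in TET2 KO mice 12. Expression ranged widely. Over the libraries with values, mean FPKM reached at least 1 for 46 genes, at least 10 for 15 and at least 100 for 2. The highest were Gpx1, a glutathione peroxidase of the cytosol, at 323 FPKM, and Cyp4b1, a P450 of lung, at 125 FPKM. Hmox1, which breaks down heme, averaged 87.3 FPKM, Prdx1 84.8, Gstm1 82.3, Aldh2, the mitochondrial acetaldehyde dehydrogenase, 73.0, and Gstp1 52.2. Values in all 12 libraries were present for 7 genes, Ces2c, Cyp1a1, Cyp27a1, Cyp2u1, Cyp4a32, Hmox1 and Sult4a1.

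Cyp1a1 showed the greatest change of these genes on HFD, and in both genotypes. Cyp1a1 (ENSMUSG00000032315, chromosome 9) had FPKM values of 1.39, 1.16 and 2.21 in the WT chow libraries and 0.0506, 0.109 and 0.110 in WT HFD. In the TET2 KO libraries it had 1.49, 0.901 and 0.680 FPKM on chow and 0.154, 0.119 and 0.0471 on HFD. All 6 chow libraries lay above all 6 HFD libraries, and the genotypes overlapped on either diet. Mean FPKM was 17.7-fold lower on HFD in WT and 9.6-fold lower in TET2 KO. In the quasi-likelihood test of edgeR, Cyp1a1 fell by 4.16 on the log2 scale in WT (SE 0.42, adjusted p = 0.0357). In TET2 KO it fell by 3.24 (SE 0.50, unadjusted p = 0.000191, adjusted p = 0.624). The diet effects of the genotypes differed by 0.92 on the log2 scale (SE 0.68, unadjusted p = 0.2), which did not pass the test. HFD libraries held only 5 to 18 reads of the gene, against 75 to 240 in chow libraries, so the low levels are known with less precision than the high ones.

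**Figure D1:**
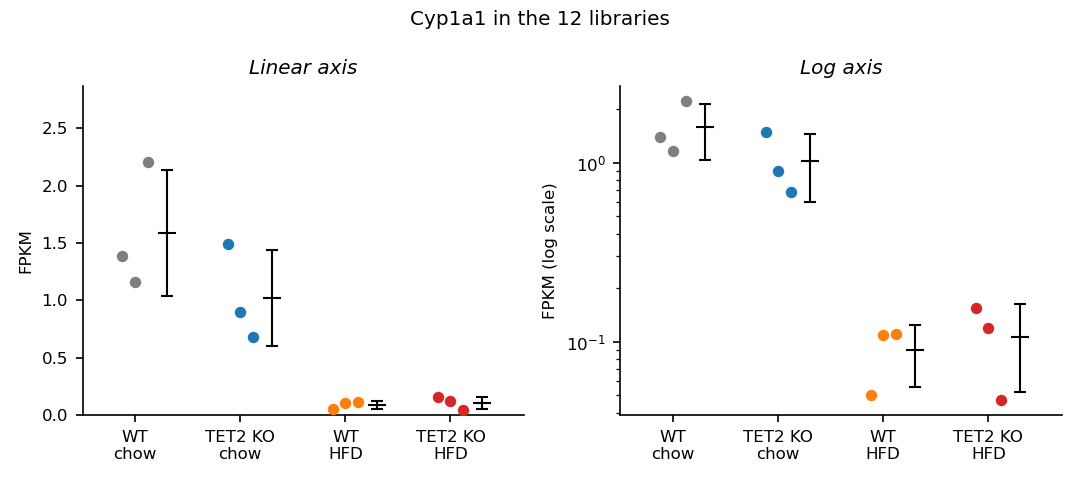
FPKM of Cyp1a1 in the 12 libraries, on a linear axis (left) and a log axis (right), with 1 dot per mouse and the mean ± SD of each group (n = 3) beside the dots. The 6 chow libraries lie between 0.680 and 2.21 FPKM and the 6 HFD libraries between 0.0471 and 0.154.

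The aryl hydrocarbon receptor binds DNA at sites with the core GCGTG. The 250 bases before the start site of Cyp1a1 (RefSeq, GRCm38.p6, chr9:57697363-57697612, plus strand) are shown because this gene moved most. They lie inside the gene as GENCODE annotates it but in none of its exons, and hold 1 such core, in capitals, which ends 50 bases before the start. 
Cyp1a1: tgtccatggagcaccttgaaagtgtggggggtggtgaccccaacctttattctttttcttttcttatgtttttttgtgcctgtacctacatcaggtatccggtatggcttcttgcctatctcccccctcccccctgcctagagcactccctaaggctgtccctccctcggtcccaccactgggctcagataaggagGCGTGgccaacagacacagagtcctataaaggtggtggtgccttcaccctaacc
On either strand, GCGTG was present in the same window of 18 of 54 genes that have one, or 33.3%, against 30.9% of 27025 genes of the genome. A match is a description of letters, not a binding site.

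The fall of Cyp1a1 was set beside a list of 15 targets and partners of the aryl hydrocarbon receptor. For HFD against chow in WT, 4 of the 15 were listed and 2 passed the test, Cyp1a1 lower and Ahr, the receptor itself, higher (log2 fold change 0.74, SE 0.16, adjusted p = 0.0478). At an unadjusted p under 0.05, 91.5% of all genes listed there passed (42.3% higher, 49.2% lower). Lpcat2 (0.59, unadjusted p = 0.0529) and Scin (−0.96, unadjusted p = 0.0514) did not pass. Nqo1, a quinone reductase that both this receptor and NRF2 induce, was listed only for TET2 KO against WT on chow. It had 0.950, 0.902 and 0.830 FPKM in TET2 KO and 1.45, 1.60 and 1.22 in WT, without overlap, and fell by 0.67 (SE 0.23, unadjusted p = 0.0211, adjusted p = 1). In TET2 KO on HFD, Ahr fell by 0.59 against WT (unadjusted p = 0.0227), and it had no value in the remaining comparisons.

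In WT mice, more of the listed enzymes were higher than lower on HFD. Of the 54 listed, 50 passed an unadjusted p under 0.05, 30 higher and 20 lower. The background must be read beside this count, since 91.5% of all 7330 listed genes passed, 42.3% higher and 49.2% lower. At an adjusted p under 0.05, 8 were higher and 1 lower, 9 of 54, where 18.5% of the listed genes passed (8.32% higher, 10.1% lower). The median log2 fold change of the 54 was 0.58, and that of all listed genes −0.32. Groups did not overlap for 42 of the 54, 25 higher and 17 lower, against 86.5% of listed genes (39.8% higher, 46.7% lower). Leaving out the second WT chow library or any WT HFD library left 0 of the 9 adjusted calls, while leaving out the third WT chow library gave 18.

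**Figure D2:**
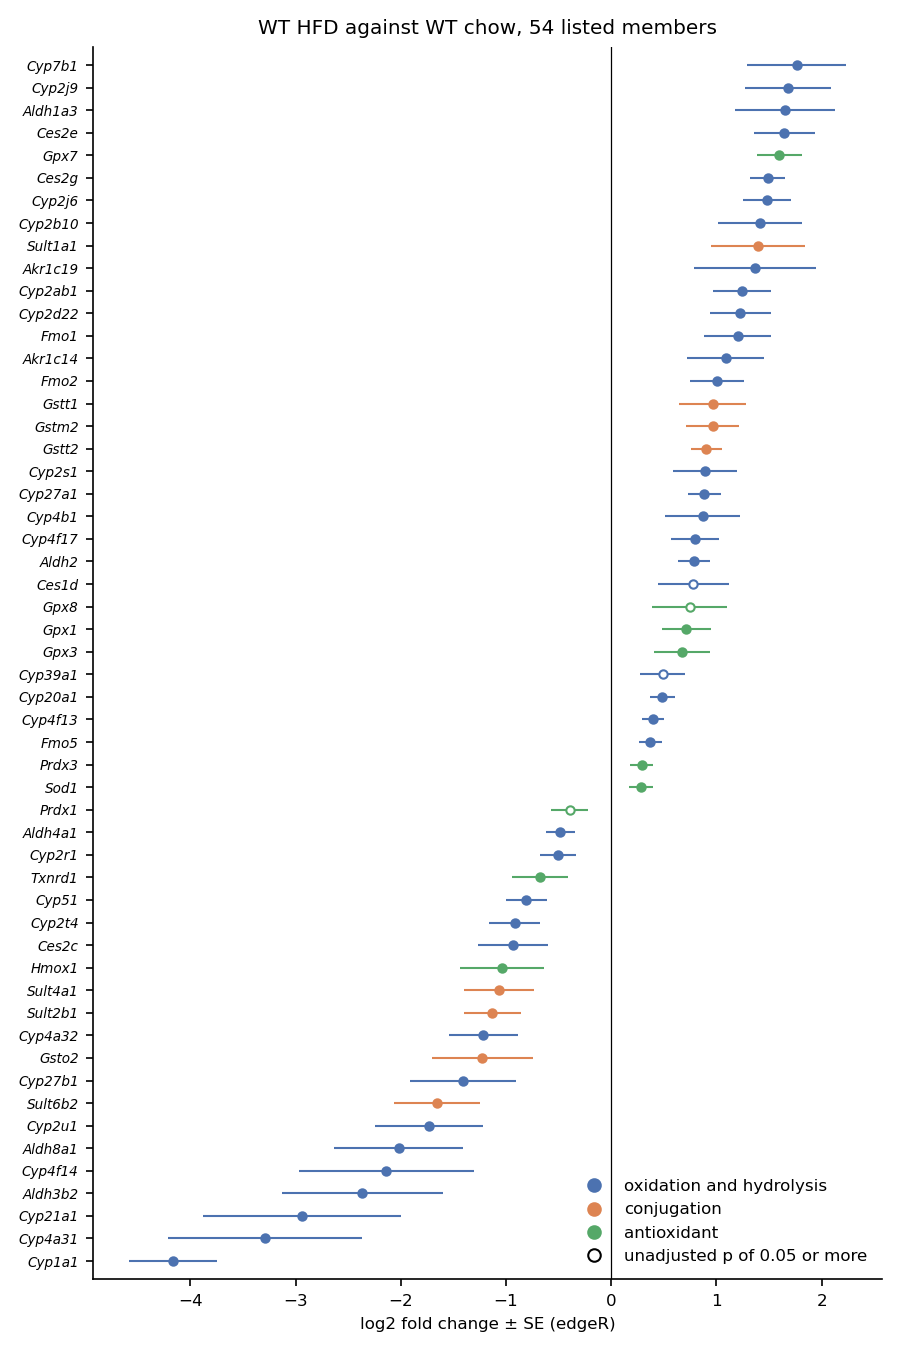
Log2 fold change ± SE (edgeR) of the 54 listed enzyme genes for WT HFD against WT chow, sorted by size and coloured by role. Filled dots passed an unadjusted p under 0.05 and open dots did not. Values run from −4.16 for Cyp1a1 to 1.76 for Cyp7b1, with 33 genes above 0 and 21 below.

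The genes with an adjusted p under 0.05 that were higher on HFD in WT came from several steps. Ces2g, a carboxylesterase, had 2.43, 2.19 and 2.13 FPKM on chow and 6.84, 6.90 and 5.10 on HFD, and its log2 fold change was 1.49 with an SE of 0.16 (adjusted p = 0.0357). Gpx7, a peroxidase of the endoplasmic reticulum, had 1.06, 0.866 and 1.11 FPKM on chow and 3.33, 3.04 and 2.81 on HFD, which is a rise of 1.60 with an SE of 0.21 (adjusted p = 0.0357). In both genes the lowest HFD library stood more than 2-fold above the highest chow library. Cyp2j6, an epoxygenase of arachidonic acid, rose by 1.48 (SE 0.23), from a mean of 0.541 to 1.51 FPKM. Gstt2 rose by 0.90 (SE 0.15), Ces2e by 1.64 (SE 0.29), Cyp2ab1 by 1.24 (SE 0.28) and Cyp27a1, the sterol 27-hydroxylase of mitochondria, by 0.89 (SE 0.16), and none of these overlapped between the groups. Aldh2, at 54.5, 50.7 and 61.9 FPKM on chow and 86.2, 87.4 and 114 on HFD, rose by 0.79 (SE 0.16, adjusted p = 0.0416).

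Flavin monooxygenases moved one way in this comparison. Fmo1, Fmo2 and Fmo5 were listed, all 3 rose, and none overlapped between the groups. Of all listed genes 86.5% did not overlap (39.8% higher, 46.7% lower). Fmo1 had 13.7, 12.3 and 25.4 FPKM on chow and 47.2, 42.5 and 28.0 on HFD, which is a rise of 1.20 with an SE of 0.32 (adjusted p = 0.0676), and Fmo2 changed by 1.01 (SE 0.26). The third WT chow library stood nearest to the HFD libraries in Fmo1, and it did so in Cyp4b1 too, where it had 143 FPKM against 63.5 and 59.5 in the other WT chow libraries and 198, 152 and 134 on HFD. Cyp4b1 rose by 0.87 (SE 0.36, unadjusted p = 0.0453). That library also had more signal from endothelial markers, a sum of 897 FPKM over 14 markers against 368 and 317 in the other WT chow libraries and 1662, 1346 and 933 on HFD.

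Endothelial markers rose on HFD in WT together with these genes. All 14 listed of 15 markers were higher and 13 passed, with Cdh5 up by 1.58 on the log2 scale and Pecam1, which encodes CD31, by 1.19. Markers of alveolar type 1 cells, the flat gas-exchange cells, were higher for 6 of 6 listed of 8, all 6 passing, with sums of 138 to 188 FPKM on HFD and 48.3 to 98.7 on chow, and NK cell markers for 6 of 6 listed of 7. Alveolar type 2 markers were higher for 5 of 5 listed of 10, with 2 passing, and T cell markers for 2 of 2 listed of 9. Club cell markers were instead lower for 3 of 4 listed of 11, with 2 passing, and mesothelial markers for 2 of 2 listed of 7, with 1 passing. Of 12 fibroblast and smooth muscle markers 5 were listed, 4 higher and 1 lower. No listed marker was at 0 in these libraries. The part of these markers in the rise of Fmo1, Fmo2, Cyp4b1, Cyp2b10, Aldh2 and other enzymes, or in the fall of those that were lower, was not tested.

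Further P450 genes rose on HFD in WT at an unadjusted p under 0.05. Cyp2b10, a P450 that drugs induce through the receptor CAR, had 1.77, 2.67 and 5.18 FPKM on chow and 9.94, 6.14 and 9.50 on HFD (log2 fold change 1.42, SE 0.40). Cyp2d22 changed by 1.23 (SE 0.29) and Cyp2j9 by 1.68 (SE 0.41), both without overlap. Cyp20a1 and Cyp4f13 changed less, by 0.49 (SE 0.12) and 0.40 (SE 0.10), with small spread between mice. Cyp7b1, which hydroxylates oxysterols, rose by 1.76 (SE 0.47) from a low level of 0.112 FPKM.

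P450 genes that fell on HFD in WT included Cyp51, the lanosterol demethylase of cholesterol synthesis. It had 16.6, 19.1 and 14.8 FPKM on chow and 7.08, 10.2 and 11.4 on HFD, without overlap, and fell by 0.81 (SE 0.20, adjusted p = 0.058). Cyp2t4 fell by 0.92 (SE 0.24) and Cyp2u1, a fatty acid hydroxylase, by 1.73 (SE 0.51). Cyp2r1, a vitamin D 25-hydroxylase, fell by 0.51 (SE 0.17), and its partner in the next step, Cyp27b1, fell by 1.41 (SE 0.50) at only 0.123 FPKM on chow. Of the 23 P450 genes listed here, 12 rose and 10 fell, which gives the family no single direction. Listed genes of all kinds passed at a share of 91.5% (42.3% higher, 49.2% lower), so the number of calls is not particular to the family. Cyp4a31, Cyp4f14 and Cyp21a1 fell too, at few reads: Cyp4a31 had 3 to 13 on chow and 0 to 2 on HFD, Cyp4f14 had 4 to 12 and 0 to 3, and Cyp21a1 had 27 to 31 and 0 to 11. Cyp4f17 rose by 0.80 (SE 0.22) and Cyp2s1 by 0.89 (SE 0.30, with overlap), while Cyp39a1, an oxysterol hydroxylase, did not pass (0.49, SE 0.21, unadjusted p = 0.0542).

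Carbonyl-handling enzymes were split on HFD in WT. Beside Aldh2, Aldh1a3, which makes retinoic acid, rose by 1.65 (SE 0.48) at 6 to 16 reads on chow and 21 to 61 on HFD. Aldh4a1, a mitochondrial enzyme of proline breakdown, fell by 0.48 (SE 0.14), with 4.38, 3.67 and 3.64 FPKM on chow and 2.72, 3.01 and 2.60 on HFD. Aldh3b2 and Aldh8a1 fell at 1 to 15 reads a library. The aldo-keto reductase Akr1c14 had 0.472, 0.858 and 0.879 FPKM on chow and 1.85, 0.921 and 1.89 on HFD and rose by 1.09 (SE 0.37), and its neighbour Akr1c19 rose by 1.37 (SE 0.58) at 3 to 30 reads, with overlap. The carboxylesterase Ces1d did not pass (0.78, SE 0.34, unadjusted p = 0.0526).

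The carboxylesterases Ces2c, Ces2e and Ces2g are neighbours on chromosome 8 (104847068 to 104969537 over all 3 genes) and moved apart on HFD in WT. Ces2e had 0.389, 0.474 and 0.276 FPKM on chow and 1.29, 0.918 and 1.33 on HFD. Ces2c instead had 2.02, 3.66 and 2.31 FPKM on chow and 1.40, 0.924 and 1.83 on HFD, and fell by 0.93 (SE 0.33, unadjusted p = 0.025, adjusted p = 0.121). Within the neighbours, Ces2g and Ces2e were thus higher in every HFD library and Ces2c lower in every HFD library than in any chow library. In TET2 KO mice Ces2c had 2.26, 2.34 and 2.40 FPKM on chow and 0.893, 2.02 and 1.00 on HFD, a fall of 0.84 (SE 0.33, unadjusted p = 0.0328). This call was lost under another scaling of the libraries, given below. Ces2e and Ces2g had no value in TET2 KO mice. Coding sequences of the 3 genes were 83.4% to 85.7% identical in aligned bases, with shared runs of up to 83 bases, so reads may in part have been split between them.

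The sequences upstream of these neighbours (RefSeq, GRCm38.p6, plus strand, 250 bases before each start) are shown because the genes moved in opposite directions. The windows lie at chr8:104846818-104847067 for Ces2c, chr8:104926010-104926259 for Ces2e and chr8:104961468-104961717 for Ces2g, in no annotated gene. Capitals mark runs of 10 or more bases that another of the 3 windows also holds on this strand.
Ces2c: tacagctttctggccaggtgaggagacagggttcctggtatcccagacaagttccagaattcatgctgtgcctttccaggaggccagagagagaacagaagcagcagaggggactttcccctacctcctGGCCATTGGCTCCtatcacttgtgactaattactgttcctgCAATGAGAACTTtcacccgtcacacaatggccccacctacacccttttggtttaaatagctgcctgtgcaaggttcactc
Ces2e: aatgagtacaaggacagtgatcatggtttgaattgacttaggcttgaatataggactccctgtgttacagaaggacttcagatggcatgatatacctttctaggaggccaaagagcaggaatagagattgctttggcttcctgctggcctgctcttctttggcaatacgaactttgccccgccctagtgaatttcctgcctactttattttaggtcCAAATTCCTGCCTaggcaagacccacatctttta
Ces2g: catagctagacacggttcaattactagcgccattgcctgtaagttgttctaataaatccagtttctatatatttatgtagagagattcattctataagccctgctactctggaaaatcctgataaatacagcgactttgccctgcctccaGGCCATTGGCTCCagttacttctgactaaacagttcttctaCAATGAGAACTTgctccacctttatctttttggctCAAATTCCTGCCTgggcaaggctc
The window of Ces2g shares runs with each of the other windows, while Ces2c and Ces2e share no run of this length with each other.

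**Figure D3:**
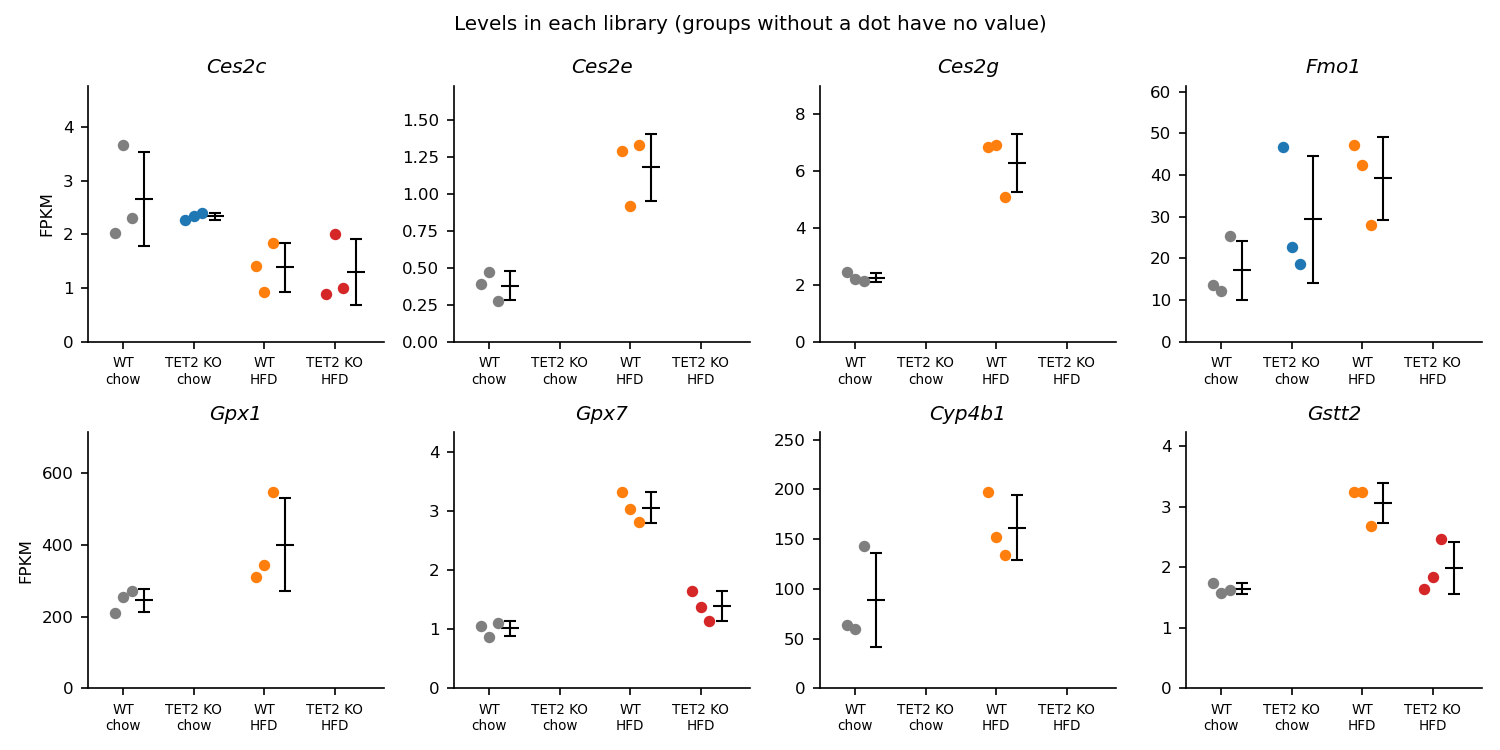
FPKM of 8 enzyme genes by library, with 1 dot per mouse and the mean ± SD of each group (n = 3), where groups without dots have no value. Ces2e, Ces2g, Gpx1, Gpx7 and Gstt2 have every WT HFD library above every WT chow library, Ces2c has the reverse, and the third WT chow library of Cyp4b1 reaches 143 FPKM.

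Conjugating enzymes moved in both directions within each family. Among glutathione S-transferases, which join glutathione to reactive compounds, Gstt1, Gstt2 and Gstm2 rose on HFD in WT without overlap and Gsto2 fell. Gstm2 had 4.24, 5.27 and 7.18 FPKM on chow and 13.4, 10.6 and 8.41 on HFD (log2 fold change 0.96, SE 0.25). Beside these families, 86.5% of all listed genes did not overlap (39.8% higher, 46.7% lower). Among sulfotransferases, 3 of 4 listed fell: Sult2b1, which sulfates cholesterol and related sterols, by 1.13 (SE 0.27), Sult4a1 by 1.06 (SE 0.33) and Sult6b2 by 1.65 (SE 0.41), all without overlap. Sult1a1, which sulfates phenols, rose by 1.39 (SE 0.45, unadjusted p = 0.017), with 2.23, 3.16 and 5.65 FPKM on chow and 10.8, 4.999 and 13.0 on HFD, so that the groups overlapped.

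Antioxidant enzymes moved in both directions on HFD in WT. Of 9 listed, 7 passed, 5 higher and 2 lower, where 91.5% of all listed genes passed (42.3% higher, 49.2% lower). The groups did not overlap for 4 of the 9, all higher, against 86.5% of listed genes (39.8% higher, 46.7% lower). All 4 listed glutathione peroxidases were higher, and Gpx1, Gpx3 and Gpx7 passed. Gpx1 had 210, 255 and 271 FPKM on chow and 309, 344 and 549 on HFD (log2 fold change 0.71, SE 0.24, unadjusted p = 0.0187). The change of Gpx8 was 0.74 (SE 0.35, unadjusted p = 0.0729). Prdx3, the mitochondrial peroxiredoxin, and Sod1, the cytosolic superoxide dismutase, rose by only 0.29 (SE 0.11) and 0.28 (SE 0.11). Hmox1 and Txnrd1, the cytosolic thioredoxin reductase, fell by 1.04 (SE 0.40, unadjusted p = 0.0359) and 0.68 (SE 0.27, unadjusted p = 0.04), with overlap between the groups. Txnrd1 had 31.4, 42.1 and 33.4 FPKM on chow and 16.0, 18.6 and 31.9 on HFD. Prdx1, at 75.4, 113 and 101 FPKM on chow and 67.6, 69.5 and 82.1 on HFD, did not pass (−0.39, SE 0.17, unadjusted p = 0.0567).

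Hmox1, Txnrd1 and Prdx1, which fell or had lower values here, are on a list of 34 NRF2 target genes. Of these 34, 10 were listed for HFD against chow in WT. At an unadjusted p under 0.05, 1 rose and 7 fell, and 0 passed after adjustment. The share that passed over all listed genes was 91.5% (42.3% higher, 49.2% lower), and 18.5% after adjustment. In 6 fits that each left out 1 library, Hmox1 kept its call in 3 and Txnrd1 in 2. Beyond the enzymes above, Slc7a11, the cystine transporter, fell by 1.76 (SE 0.62) and Srxn1, which repairs peroxiredoxins, by 0.72 (SE 0.26). Gclc, a subunit of glutamate-cysteine ligase, fell by 0.42 (SE 0.13). Ephx1, the microsomal epoxide hydrolase, rose by 0.61 (SE 0.17), and Me1 did not pass (0.75, unadjusted p = 0.0719). Of 8 NRF2 regulators 1 was listed, Sqstm1, which fell by 0.40 (SE 0.15). The median of the 10 was −0.57 beside −0.32 over all listed genes. Neutrophil Retnlg, the only listed neutrophil marker of 7, fell by 1.47, and 7 of 12 monocyte and macrophage markers passed, 4 higher and 3 lower, whose part in these values was not tested.

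NRF2 binds the antioxidant response element, whose core is written TGACNNNGC. In the 250 bases before the starts this core was present for 7 of 54 genes with a window, or 13.0%, against 11.5% of 27025 genes. Among these 7, Sod1 was higher and Cyp4f14 lower on HFD in WT, while Cyp8b1, Gsta3 and Gstm5 were not listed there. Prdx1 and Txnrd1 hold the core too, Txnrd1 at 1 of 3 annotated starts. Their stretches are shown with 10 bases either side of the core. Both are NRF2 targets with lower values, though Prdx1 did not pass. Capitals mark the core, which in both runs on the opposite strand. The stretch of Prdx1 is at chr4:116685456-116685484 and that of Txnrd1 at chr10:82859104-82859132 (RefSeq, GRCm38.p6, plus strand).
Prdx1: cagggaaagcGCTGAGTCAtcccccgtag
Txnrd1: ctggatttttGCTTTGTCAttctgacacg
Hmox1 had no window.

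Redox enzymes of other families, a list of 40, were also looked up for HFD against chow in WT. There were 13 listed, and 9 rose and 3 fell at an unadjusted p under 0.05. This is near the share over all listed genes, 91.5% (42.3% higher, 49.2% lower), beside which the next 2 lists must be read too. Txnip, an inhibitor of thioredoxin, rose by 0.79 (SE 0.21), Selenop, a secreted selenium carrier, by 0.63 (SE 0.16), Msrb3, a methionine sulfoxide reductase, by 1.44 (SE 0.44), and Gss, glutathione synthetase, by 0.39 (SE 0.12). Sesn2, a stress-induced sestrin, fell by 0.74 (SE 0.19). On a list of 13 retinoid and steroid partners 5 were listed and all passed, with Rarg up by 0.99 (SE 0.18) and Crabp2 down by 3.28 (SE 0.52), both under an adjusted p of 0.05. Of 14 arachidonate pathway genes 3 were listed. Hpgd, which inactivates prostaglandins, rose by 1.72 (SE 0.37, adjusted p = 0.0473), Ptgs1 by 1.47 (SE 0.46), and Tbxas1, thromboxane synthase, fell by 1.04 (SE 0.39).

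In TET2 KO mice, HFD against chow listed 12 of the enzymes, and 9 passed, 4 higher and 5 lower, where 77% of the 1628 listed genes passed (29.3% higher, 47.7% lower). None passed after adjustment, against 0.0614% of listed genes, with edgeR, and 1, Cyp1a1, did with DESeq2. With TMM scaling over the listed genes, which moved the median of all genes by 0.245 on the log2 scale, 6 were higher and 1 lower, and 64.3% of the called genes were higher instead of 38.0%. The 1 lower gene was Cyp1a1, so Ces2c, Akr1e1, Akr1c13 and Sult4a1 lost their calls. Which of the smaller changes passed therefore depended on the scaling. The groups did not overlap for 6 of 12, 2 higher and 4 lower, against 72.6% of listed genes (30.2% higher, 42.4% lower). Without 1 library the count ranged from 2 to 8: it was 5 without the first TET2 KO chow or first TET2 KO HFD library, 3 without the second TET2 KO chow library and 2 without the third TET2 KO HFD library.

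Apart from Cyp1a1, most changes on HFD in TET2 KO were moderate, and that of Ces2c is given above. Sod3, the extracellular superoxide dismutase, had 0.696, 0.310 and 0.352 FPKM on chow and 0.913, 0.803 and 1.48 on HFD, without overlap, and rose by 1.23 (SE 0.39, unadjusted p = 0.0142). Cyp2a5, a coumarin hydroxylase, had 0.983, 0.722 and 0.439 FPKM on chow and 1.15, 1.497 and 2.47 on HFD and rose by 1.25 (SE 0.40, unadjusted p = 0.0143). Cyp27a1 rose by 0.73 (SE 0.28) with overlap between the groups, since the first TET2 KO HFD library had 7.94 FPKM and the other HFD libraries 13.2 and 16.8. Akr1e1 fell by 0.67 (SE 0.24) and Akr1c13 by 0.61 (SE 0.26), both aldo-keto reductases. Sult4a1 fell by 0.89 (SE 0.35), with overlap. Cyp4a12b rose by 2.40 (SE 0.85) at 10, 1 and 2 reads on chow and 8, 29 and 29 on HFD, and Txnrd3 did not pass (0.46, unadjusted p = 0.0626). Of other lists, the NRF2 target Cbr3, a carbonyl reductase, fell by 0.52 and Ephx1 rose by 0.39, Dhrs3, a retinal reductase, fell by 0.75 and Ltc4s, leukotriene C4 synthase, by 0.85. Of the 40 other redox genes 5 were listed, with 1 rising and 3 falling. Club cell markers were higher for 5 of 5 listed of 11 (sums of 37.7 to 96.4 FPKM on HFD and 26.2 to 37.4 on chow, all 5 passing), fibroblast and smooth muscle markers for 6 of 6 listed of 12, and mesothelial markers for 5 of 6 listed of 7, while monocyte and macrophage markers were lower for 5 of 5 listed of 12 (2018 to 3430 against 4002 to 5608 FPKM). Sod3 and Cyp2a5 moved with the former, and the part of these markers was not tested.

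The diet effects in WT and TET2 KO rest on different libraries. Both comparisons listed 6 of the genes, 11.1% of the 54 in WT and 50% of the 12 in TET2 KO. Ces2c, Cyp1a1, Cyp27a1, Cyp2u1 and Sult4a1 had the same direction and Cyp4a32 the opposite, 5 of 6, beside 430 of 611, or 70.4%, of all genes in both tables. Cyp2u1 had 0.104, 0.270 and 0.411 FPKM in WT chow and 0.0705, 0.0916 and 0.0730 in WT HFD, and 0.0804, 0.263 and 0.314 in TET2 KO chow and 0.109, 0.102 and 0.0951 in TET2 KO HFD, where it did not pass (−1.09, SE 0.51, unadjusted p = 0.0644). Among these 6, the diet effect differed between the genotypes at an unadjusted p under 0.05 only for Cyp4a32.

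On chow, TET2 KO against WT listed 16 of the enzymes, most of them lower. There were 11 that passed, 10 lower and 1 higher, where 76.5% of 1298 listed genes passed (45.9% lower, 30.6% higher). None passed after adjustment with edgeR or DESeq2, nor did any of the listed genes with edgeR (993 of 1298 at an unadjusted p under 0.05). The median log2 fold change was −0.72, beside −0.37 over all listed genes. The groups did not overlap for 11 of 16, 2 higher and 9 lower, against 74.7% of listed genes (30.7% higher, 44.1% lower). The count was 7 without the second WT chow library and 6 without the second or without the third TET2 KO chow library.

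**Figure D4:**
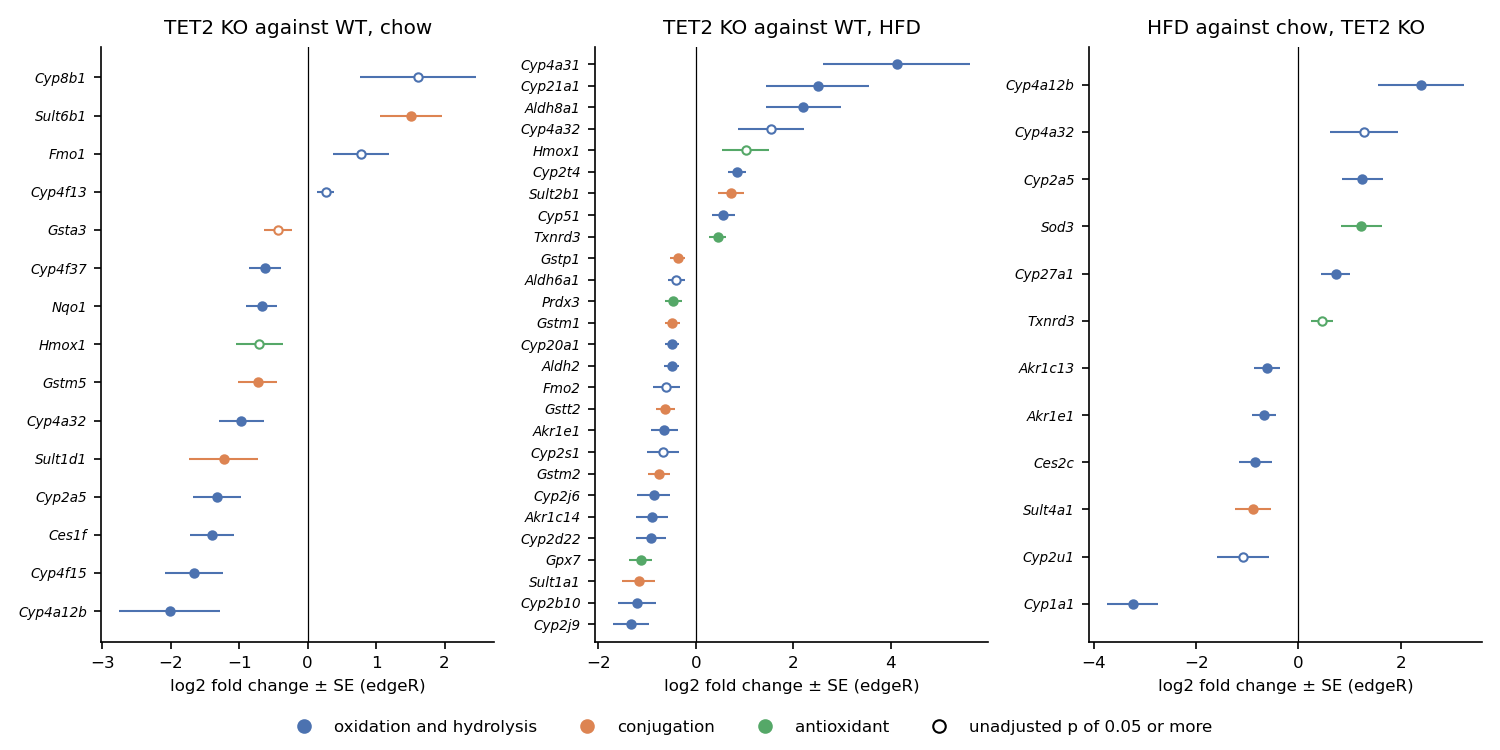
Log2 fold change ± SE (edgeR) of the listed enzyme genes in TET2 KO against WT on chow (15 of 16 genes), TET2 KO against WT on HFD (27 genes) and HFD against chow in TET2 KO (12 genes), coloured by role. Filled dots passed an unadjusted p under 0.05, and the axes differ between the panels.

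P450 genes made up 5 of the 10 enzymes that fell in TET2 KO on chow. This is near their share of all enzymes in that table, where 7 of 16 were P450 genes, so it does not single out the family. Cyp2a5 had 1.34, 2.26 and 1.79 FPKM in WT beside the TET2 KO values given above and fell by 1.33 (SE 0.35, unadjusted p = 0.00605). It kept an unadjusted p under 0.05 whichever library was left out. The same TET2 KO chow libraries served the comparison of the diets in TET2 KO. The fall of Cyp2a5 here and its rise on HFD in TET2 KO are therefore not independent, nor are those of Cyp4a12b. Cyp4a32, a fatty acid omega-hydroxylase, fell by 0.97 (SE 0.33), Cyp4f37 by 0.62 (SE 0.23), Gstm5 by 0.73 (SE 0.29) and Sult1d1 by 1.23 (SE 0.51). Ces1f and Cyp4f15, with means under 50 normalised counts, fell by 1.39 (SE 0.32) and 1.66 (SE 0.42). Cyp4a12b fell by 2.02 (SE 0.74) at 21, 8 and 23 reads in WT and 10, 1 and 2 in TET2 KO, with overlap. Of the 16, 4 were higher in TET2 KO, and Sult6b1 was the only one of these that passed. It rose by 1.51 (SE 0.46), at 0.0807 FPKM in WT and 0.230 in TET2 KO.

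Not passing on chow were Hmox1 (−0.71), Gsta3 (−0.44), Cyp4f13 (0.27), Fmo1 (0.78) and Cyp8b1 (1.61), with unadjusted p from 0.0641 to 0.0983. Fmo1 had 46.8, 22.7 and 18.6 FPKM in TET2 KO, so that a single library set most of its difference. Cyp8b1, the sterol 12-alpha-hydroxylase, likewise had 2.33, 0.681 and 0.441 FPKM in TET2 KO and 0.129, 0.182 and 0.829 in WT. The redox list of 40 and the NRF2 regulators had no listed gene here. Ptgs2, the inducible cyclooxygenase, rose by 0.57 (SE 0.23), Rarg rose by 0.43 (SE 0.14) and Rdh10, a retinol dehydrogenase, fell by 0.46 (SE 0.19).

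Markers of other cells fell with the enzymes in TET2 KO on chow. Club cell markers were lower for 8 of 8 listed of 11, all passing, with sums of 2389 to 3142 FPKM in TET2 KO and 4374 to 5767 in WT, mesothelial markers for 5 of 5 listed of 7 and fibroblast and smooth muscle markers for 4 of 4 listed of 12. T cell markers were higher for 6 of 6 listed of 9. No endothelial marker was listed, and no listed marker was at 0. The rise of club cell, mesothelial and fibroblast markers on HFD in TET2 KO, given above, rests on the same TET2 KO chow libraries. The part of these cells in the fall of the enzymes was not tested.

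On HFD, TET2 KO against WT listed 27 of the enzymes, and 22 passed, 15 lower and 7 higher, where 82.2% of 3939 listed genes passed (39.1% lower, 43.1% higher). None passed after adjustment with edgeR, as for all 3939 listed genes (3237 at an unadjusted p under 0.05), and 4 did with DESeq2. The median log2 fold change was −0.49, and that of all listed genes 0.33. The groups did not overlap for 17 of 27, 4 higher and 13 lower, against 74.7% of listed genes (38.9% higher, 35.8% lower). Of these libraries the WT HFD ones also serve the comparison with WT chow, so the values of both comparisons are not independent. The count was 10 without the first and 13 without the second WT HFD library, and 14 without the first or without the second TET2 KO HFD library.

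Gpx7 had the lowest p of these genes. It had 1.65, 1.38 and 1.14 FPKM in TET2 KO on HFD, below all WT HFD values, and fell by 1.13 (SE 0.23, unadjusted p = 0.00146, adjusted p = 0.261). All 4 listed glutathione S-transferases fell without overlap, beside 74.7% of all listed genes without overlap (38.9% higher, 35.8% lower). Gstm1 had 70.8, 74.6 and 60.0 FPKM in TET2 KO and 104, 84.9 and 99.5 in WT (log2 fold change −0.48, SE 0.15), and Gstm2, Gstt2 and Gstp1 fell by 0.76 (SE 0.22), 0.62 (SE 0.19) and 0.38 (SE 0.16). Aldh2, with 66.1, 62.1 and 74.6 FPKM in TET2 KO, fell by 0.50 (SE 0.16), and Sult1a1 by 1.17 (SE 0.34). Prdx3 fell by 0.46 (SE 0.18).

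Among the 11 P450 genes listed on HFD, 5 fell and 4 rose at an unadjusted p under 0.05. The share over all listed genes was 82.2% (39.1% lower, 43.1% higher). Cyp2j9 fell by 1.33 (SE 0.36) and Cyp2j6 by 0.87 (SE 0.34), neighbours on chromosome 4 whose coding sequences were 83.1% identical. Cyp2b10, at 2.87, 2.16 and 6.00 FPKM in TET2 KO, fell by 1.21 (SE 0.38), Cyp2d22 by 0.92 (SE 0.31) and Cyp20a1 by 0.49 (SE 0.14). Cyp2t4 rose by 0.84 (SE 0.19, unadjusted p = 0.00241), with 4.77, 4.16 and 4.39 FPKM in TET2 KO and 2.12, 2.87 and 2.49 in WT, and kept an unadjusted p under 0.05 whichever library was left out. Cyp51 rose by 0.56 (SE 0.23), Sult2b1 by 0.73 (SE 0.26) and Txnrd3, the thioredoxin glutathione reductase, by 0.44 (SE 0.18). The aldo-keto reductases Akr1c14 and Akr1e1 fell by 0.91 (SE 0.33) and 0.65 (SE 0.28) with overlap. Aldh8a1, Cyp21a1 and Cyp4a31 rose at few reads, with 1 to 4, 0 to 11 and 0 to 2 in WT and 3 to 14, 11 to 33 and 0 to 43 in TET2 KO. Aldh6a1 (−0.41), Fmo2 (−0.61) and Cyp2s1 (−0.67) did not pass, with unadjusted p from 0.0513 to 0.0769.

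Endothelial and alveolar type 1 markers moved in this comparison too. Endothelial markers were lower in TET2 KO on HFD for 12 of 12 listed of 15, with 9 passing, and summed to 878, 476 and 525 FPKM in TET2 KO and 1574, 1254 and 889 in WT. Alveolar type 1 markers were lower for 6 of 6 listed of 8, all passing, with sums of 45.6 to 76.9 FPKM against 102 to 138. No listed marker was at 0. The lower levels of Gpx7, the glutathione S-transferases, Cyp2b10 and Aldh2 came with these shifts, whose part was not tested. Of other redox enzymes 7 of 40 were listed, with Gclc and Sesn2 higher and 5 lower, all passing. Of NRF2 targets 6 of 34 were listed, with 1 rising, Gclc by 0.44 (SE 0.16), and 3 falling. Beside these lists, 82.2% of all listed genes passed (43.1% higher, 39.1% lower). Mafk, a partner of NRF2, rose by 0.38 (SE 0.15). Hpgd fell by 1.05 (SE 0.24) and Ptgs1 by 1.19 (SE 0.40), both of the arachidonate list, and Crabp2 rose by 2.08 (SE 0.66) and Rarg fell by 0.60 (SE 0.18).

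Hmox1 was listed in 3 comparisons and Cyp4a32 in all 4, and the genotype tables of both diets held each of them (12.5% of the 16 enzymes on chow and 7.41% of the 27 on HFD), with opposite directions. So were 457 of all 461 genes in both tables, so that this pattern is not particular to the pair. Hmox1 (chromosome 8) had 61.3, 172 and 107 FPKM in WT chow, 62.9, 83.0 and 62.5 in TET2 KO chow, 40.2, 47.2 and 78.0 in WT HFD and 116, 175 and 43.3 in TET2 KO HFD. By their means the groups ranked WT chow (114), TET2 KO HFD (111), TET2 KO chow (69.5) and WT HFD (55.1), and all neighbours in this order overlapped. TET2 KO differed from WT by −0.71 on chow (SE 0.34, unadjusted p = 0.075) and by 1.02 on HFD (SE 0.48, unadjusted p = 0.0705), neither of which passed. The difference of these effects was 1.72 on the log2 scale (SE 0.67, unadjusted p = 0.024, adjusted p = 0.0437) in a model of all 12 libraries. Among 7 of the enzymes in this model 2 passed, where 56.4% of 975 genes did, and 55.5% after adjustment. The genes in this model were there because they were listed for several of the comparisons it combines, so a difference of effects was in large part fixed by the listing and the values describe these libraries only.

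Cyp4a32 (chromosome 4) had 2.27, 2.68 and 3.92 FPKM in WT chow, 2.03, 1.48 and 1.02 in TET2 KO chow, 1.70, 1.22 and 0.863 in WT HFD and 7.66, 2.30 and 1.06 in TET2 KO HFD. It fell on HFD in WT by 1.22 (SE 0.33, unadjusted p = 0.00736) and in TET2 KO on chow, both without overlap, while the TET2 KO HFD libraries overlapped each of the other groups. There TET2 KO differed from WT by 1.55 (SE 0.68, unadjusted p = 0.0539). The genotype effects differed by 2.51 (SE 0.83, unadjusted p = 0.0105, adjusted p = 0.0227). Without the first TET2 KO HFD library the difference was 1.38 and still had an unadjusted p under 0.05, while the effect of TET2 KO on HFD was then 0.41. Coding sequences of Cyp4a32 and its neighbour Cyp4a31 were 96.0% identical, with shared runs of up to 211 bases, so reads of the genes cannot be fully told apart.

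**Figure D5:**
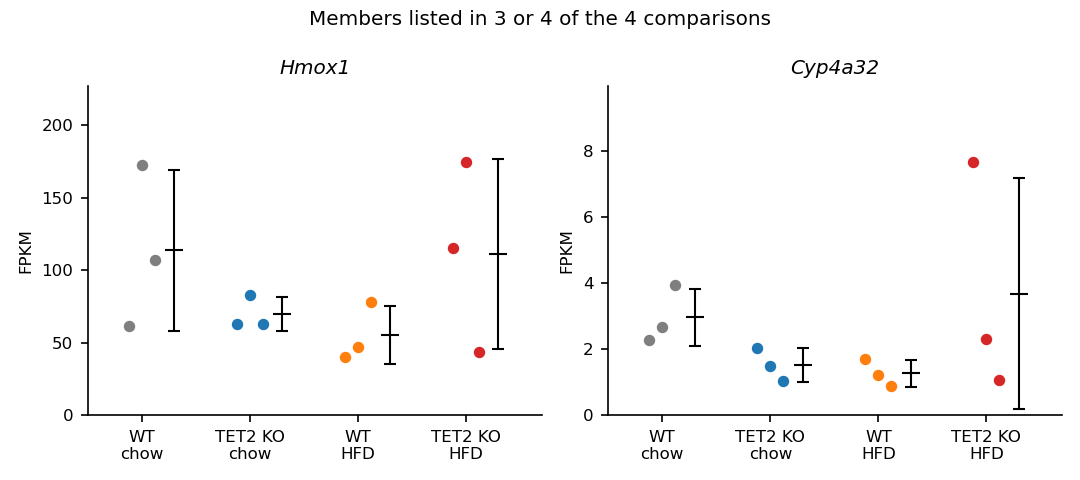
FPKM of Hmox1 and Cyp4a32 by library in the 4 groups, with 1 dot per mouse and the mean ± SD (n = 3). In TET2 KO on HFD the libraries spread from 43.3 to 175 FPKM for Hmox1 and from 1.06 to 7.66 FPKM for Cyp4a32.

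The enzymes are clustered in the genome. With gaps of at most 200 kb, 31 of the 73 fell into 12 clusters on GRCm38, and all 73 lay on 16 chromosomes. Members of a cluster did not always move together. Gstm2 and Gstm1 (chromosome 3) both fell in TET2 KO on HFD, and their neighbour Gstm5 fell in TET2 KO on chow. Cyp4b1 rose and Cyp4a32 fell on HFD in WT in 1 cluster of 4 genes on chromosome 4. Exons of 15 of the 73 genes overlapped an exon of another annotated gene, for 12 of them on the opposite strand, among them Cyp2t4 with Egln2, Cyp51 with Akap9 and Aldh2 with Gm42879. Without a stated strand setting, reads of such pairs cannot be told apart.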

How the data were processed

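Poly(A) RNA of CD31+ lung cells from 12 mice was sequenced as paired-end reads. Per the paper's methods the authors cleaned the reads, aligned them with HISAT2 (mm10 in the submitters' processing notes), obtained gene counts from featureCounts and ran DESeq2 for each comparison. Versions, annotation and strand setting are not given in the sources used here. The authors deposited raw counts, a normalised signal (counts divided by a DESeq2 size factor of each library and table), FPKM, log2 fold changes, p-values before and after adjustment, and gene annotation. Their fold changes were not used. Their p-values served only to check that each table lists genes with an unadjusted p under 0.05 and to recover how many genes they adjusted over (18463 for TET2 KO against WT on chow, 23768 for the diets in WT, 18703 for TET2 KO against WT on HFD and 19511 for the diets in TET2 KO).

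Groups came from the sample titles. Counts of all listed genes were fitted with edgeR 4.0.16 (R 4.3.3, quasi-likelihood, two-sided, 3 against 3 libraries, library sizes from the recovered size factors). A gene passed at an unadjusted p under 0.05. Adjustment was by Benjamini and Hochberg over the numbers above, and genes that the authors left unadjusted have none. The interaction of genotype and diet was fitted over 975 genes with counts in all 12 libraries. With 3 against 3 libraries an exact permutation test cannot go below 0.1. Alternatives were DESeq2 1.42.0, limma-trend (limma 3.58.1, pseudocount 1), TMM over listed genes, library totals, a mean of at least 10 normalised counts, a threshold on the adjusted p (0.05) or on the size of the log2 fold change (1), the replicate number as a block, and leaving out each library. Only the edgeR fit of the pairwise comparisons was tested on simulated data, with the same spread for all genes and no selection by p. That test therefore does not give error rates for the listed genes.

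The genes, 6 gene lists (aryl hydrocarbon receptor, NRF2 targets, NRF2 regulators, other redox enzymes, retinoid and steroid partners, arachidonate pathway) and 13 marker lists were chosen with earlier results of these data known. Ciliated markers passed for 1 of 9 on HFD in WT (higher) and 1 of 9 in TET2 KO on HFD (lower), while no B cell or erythroid marker was listed. Named by rule were 50 of the 73 genes: up to 12 higher and 12 lower genes per comparison by p with a mean of at least 50 normalised counts, those in 3 or 4 tables, those on the first 2 lists, and the most abundant. The remaining 23 were named after their values were seen. 1 gene is counted but not reported here. Upstream windows of 54 genes came from RefSeq (GRCm38.p6) and the other 19 had none. Coding sequences and exons came from GENCODE M21 (GRCm38), where all 73 gene IDs were found, 67 with the positions the tables give, and were aligned with biopython 1.88.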

Additional observations from a re-analysis of the deposited data

Results flagged for a closer look

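The effect of TET2 KO against WT differed between the diets for Hmox1 (interaction 1.72 on the log2 scale, SE 0.67, adjusted p = 0.0437) and for Cyp4a32 (interaction 2.51, SE 0.83, adjusted p = 0.0227) in edgeR's model of all 12 libraries, and both were flagged by this test of the difference. For Hmox1 the estimate lay between 1.24 and 2.11 when 1 library was left out, and 8 of these 12 fits kept an unadjusted p under 0.05 but only 3 an adjusted p under 0.05. For Cyp4a32 it lay between 1.38 and 2.95, with 12 of 12 fits under the unadjusted threshold and 11 under the adjusted one, which was lost without the first TET2 KO HFD library. With the replicate number as a block, 1 of the 2 adjusted calls was left. Both genes were in the model because they were listed for enough comparisons to have counts in every library. Of the genes listed for TET2 KO against WT on both diets, 457 of 461 had opposite directions, and 55.5% of its 975 genes had an adjusted p under 0.05.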

How the results depend on the processing

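The counts of enzymes that passed (11 for TET2 KO against WT on chow, 50 for the diets in WT, 22 for TET2 KO against WT on HFD, 9 for the diets in TET2 KO and 2 for the interaction) stayed within 1.5 times with DESeq2, limma-trend, TMM, library totals and the minimum of 10 normalised counts, where these were run. At an adjusted p under 0.05 they were 0, 9, 0 and 0 in the 4 comparisons, and with a log2 fold change over 1 they were 7, 29, 7 and 4. Adjusted calls for the diets in WT depended on the test, with 9 in edgeR, 19 with TMM, 37 with DESeq2 and 0 with the replicate number as a block. Leaving out 1 library at a time gave 6 to 10, 35 to 46, 10 to 20, 2 to 8 and 1 to 2, and fewer samples lower the power of each fit. With the replicate block the counts were 10, 43, 22 and 10, and 2 for the interaction. The correlation of same-numbered libraries ran from −0.131 to 0.213 and most libraries correlated best with another number. With 3 libraries a group and listed genes only, this cannot tell whether same-numbered samples shared a litter, day or batch. Of the fold changes of single named genes in the 4 comparisons under the alternatives, 645 kept direction and side of the threshold, 138 lost the call and 27 gained it. The interactions of Ces2c (0.10), Cyp27a1 (−0.15) and Sult4a1 (0.18), which did not pass, changed sign when some libraries were left out, over −0.36 to 0.35, −0.41 to 0.10 and −0.20 to 0.41. Most genes had many reads at this depth, and the spread between 3 mice limits their values. Few reads were held by Cyp4a31, Aldh8a1, Cyp21a1, Cyp4a12b, Cyp4f14, Aldh3b2, Cyp27b1, Akr1c19 and Sult6b1, among others, and by Cyp1a1 in HFD libraries. The higher group had a mean under 50 normalised counts for 4 of 16, 9 of 54, 3 of 27 and 2 of 12 listed enzymes, with the comparisons in the order above. For the listed genes of TET2 KO against WT on chow, TMM moved the share of calls that were higher from 40.0% to 49.6%.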
